A study of Mus musculus with 14 samples.

Results

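Corticotropin-releasing hormone (CRH) and the genes that act with it were examined in neurons of the mouse medial vestibular nucleus: Crh, the peptide precursor, Crhbp, its secreted binding protein, and Crhr1 and Crhr2, its receptors. They were chosen by symbol in the platform annotation, with earlier results of these data known, and make up 4 of 16244 genes measured. Each was read by 1 probe set. The mice belonged to GIN, GlyT2-13 and YFP-16, reporter lines on C57BL/6, and were aged 24 to 32 days after birth, and the labels list all 3 lines for every pool. Regulatory sequences of Thy1, Gad1 and Slc6a5 drive the reporters of YFP-16, GIN and GlyT2-13, which bounds the neurons that could be collected. The study amplified cDNA of single cells, classed them by transmitter genes, channels and markers, and pooled the cDNA into 5 inhibitory types (I1a, I1b, I2, I3a, I3b) and the excitatory types E1 and E2. Each of the 7 pools was hybridised to 2 arrays, the technical replicates. The labels name no treatment and do not say how many cells went into a pool. E3, a further type in the design, was not analysed here.

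CRH is cut from a longer precursor, stored in dense core vesicles and released by neurons. It acts through class B receptors that couple mainly to Gs and raise cyclic AMP. The binding protein holds the peptide outside the cell and limits the amount that reaches receptors. CRH is best known as the hypothalamic start of the hormonal stress response, and it is also made in neurons of the hindbrain, among them cells of the inferior olive that project to the cerebellum.

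The genes lie on different chromosomes of GRCm38.p6. Crh spans positions 19693401 to 19695396 of chromosome 3 (Entrez gene 12918), and Crhbp spans 95431376 to 95444831 of chromosome 13 (Entrez gene 12919). Crhr1 spans 104130463 to 104175523 of chromosome 11 (Entrez gene 12921), and Crhr2 spans 55090048 to 55133016 of chromosome 6 (Entrez gene 12922). The promoter of Crhbp is shown because its transcript was read in a restricted set of pools. No promoter window of Crh was available in the sequences used, so Crh was not searched. It covers 250 bases before and 50 after the RefSeq start, chr13:95444782-95445081 on the minus strand, printed 5′ to 3′ along the gene. Capitals mark matches to the motifs searched.
Crhbp promoter: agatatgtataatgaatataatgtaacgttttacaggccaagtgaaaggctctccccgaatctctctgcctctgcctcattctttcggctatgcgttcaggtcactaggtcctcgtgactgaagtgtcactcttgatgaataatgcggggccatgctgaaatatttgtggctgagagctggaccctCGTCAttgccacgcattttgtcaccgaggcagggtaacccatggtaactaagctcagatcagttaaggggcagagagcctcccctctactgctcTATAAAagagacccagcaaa
Both strands were searched for the cyclic AMP response element (CRE) TGACGTCA, its half-site TGACG, which overlaps it, the TATA box TATAAA, the AP-1 site TGACTCA and the Nr4a site AAAGGTCA. The Crhbp window held 1 half-site on the opposite strand, with its leftmost base at position -64 from the start, and 1 TATA box beginning at base 31 after the annotated start. Of 32851 RefSeq promoter windows of this length, 20.8% held the half-site and 13.6% the TATA box. The full CRE was in 1.79%, the AP-1 site in 5.2% and the Nr4a site in 1.51%. The Crhr2 window held a TATA box beginning at position -39, and the Crhr1 window held none of the 5 motifs. That Crhr1 window, chr11:104132531-104132830 on the plus strand, lies inside the gene span given above and not at its first base. GC content was 48% in the Crhbp window, 59% in that of Crhr2 and 75% in that of Crhr1. A match is a description of letters and not of a bound site.

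Values are log2 signals, so 1 unit is a doubling, and the lowest value of the table was 2.387. Of the 16244 genes, 4409 had a mean of 5 or more in at least 1 pool and were tested. Across these genes, which are not independent replicates, r was 0.981 to 0.992 between arrays of a pool and 0.847 to 0.960 between pools. Slc32a1, which loads inhibitory transmitters into vesicles, read 9.20 to 9.76 in the I pools, and 6.60 in E1 and 5.41 in E2. Slc17a6, a vesicular glutamate transporter, read 11.11 in E1 and 10.98 in E2, and from 3.11 in I2 to 10.48 in I1b among the I pools. The cells were classed by transmitter genes, so these levels are no independent check of the labels. The standard deviation between arrays of a pool, as a root mean square over the genes tested, was 0.19 to 0.29 log2 units. Single genes lay outside that range, such as Crhbp in I3a at 0.95. All 5 neuronal markers measured (Rbfox3, Snap25, Map2, Nefl and Syt1) were at 5 or more in every pool. None of 6 astrocyte, 5 microglia, 4 endothelial or 4 cerebellar markers measured reached 5 in any pool. The astrocyte gene Gja1, a gap junction protein, read 3.81 and 4.57 on the I3a arrays and 2.40 to 2.66 as means of the other pools. The summed log2 level of the astrocyte list was 16.2 in I3a and 14.4 to 14.8 in the others, and its part in the I3a results was not tested. Of 5 oligodendrocyte markers, Mbp reached 5.50 in I1b and 6.20 in I3a, and the others did not reach 5 in any pool. The members' levels are given as a description with no test, because they were chosen with these values known. In pooled cDNA, fewer cells with a transcript and less transcript per cell cannot be told apart.

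Crh, the hormone precursor, was read at high levels in both excitatory pools and at graded levels among the inhibitory pools. Its 2 arrays gave 13.29 and 13.15 in E2, and 10.98 and 10.76 in E1. Among inhibitory pools they gave 9.77 and 9.60 in I3a, 8.14 and 8.45 in I1b, and 7.72 and 7.75 in I2. They gave 4.36 and 4.02 in I3b, and 2.90 and 2.83 in I1a, close to the lowest value of the table. Both excitatory pools thus lay above all 5 inhibitory pools, a pattern shown by 5.99% of the genes tested. Within each pair of sister pools 1 member was clearly higher: E2 over E1, I1b over I1a and I3a over I3b. The difference of E1 minus E2 was -2.35, that of I1a minus I1b was -5.43, and that of I3a minus I3b was 5.50.

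The order of Crh was E2, E1, I3a, I1b, I2, I3b and I1a, and the arrays of no neighbouring pools overlapped. That held for 2.04% of genes tested. The narrowest step was I1b over I2, with means of 8.29 and 7.73 and 0.39 log2 units between their closest arrays, while the arrays of I1b lay 0.31 apart. The widest was I2 over I3b, where the means differed by 3.54. Both E2 arrays lay at least 2.17 above every other array, and 4.15% of genes had a pool set apart by at least 1. From lowest to highest pool Crh spanned 10.36 log2 units, the widest span of the 4409 genes, whose median was 1.13. Cd24a, a surface glycoprotein, followed with 9.57, and C1ql3, a secreted synaptic protein, with 8.70. The lowest pool, I1a, read close to the lowest value of the table, so the span depends on where that limit lies.

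**Figure D1:**
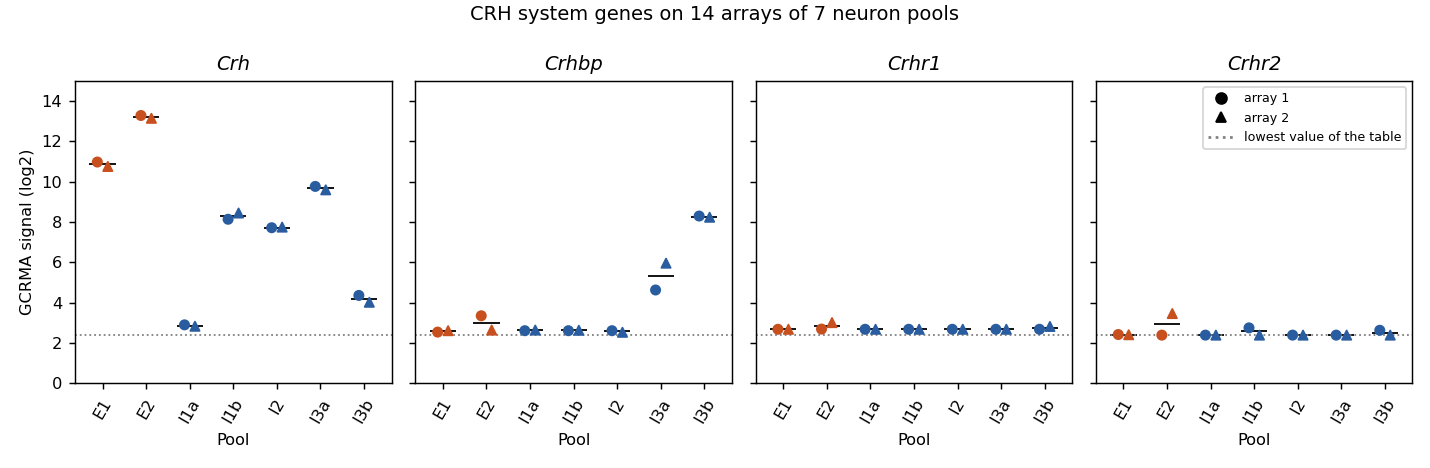
Log2 signal of Crh, Crhbp, Crhr1 and Crhr2 (vertical axis) on each array of the 7 pools (horizontal axis), with E pools in orange, I pools in blue, circles and triangles for arrays 1 and 2, black lines for pool means and a dotted line for the lowest value of the table. Crh runs from 2.86 in I1a to 13.22 in E2, Crhbp stands above 4 in I3a and I3b, and the receptors stay at 3.46 or below.

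Among inhibitory pools, the level of Crh was set beside that of Slc17a6, the vesicular glutamate transporter of brainstem excitatory neurons and a gene the cells were classed by. Slc17a6 read 10.48 in I1b and 6.93 in I3a, where Crh read 8.29 and 9.69. It also read 8.60 in I1a, where Crh was 2.86, and 3.11 in I2, where Crh was 7.73. The pools with the transporter were therefore not those with the hormone in each case. The oligodendrocyte gene Mbp, which encodes a myelin protein, was higher in the same sister pools as Crh among inhibitory types, at 5.50 in I1b against 2.43 in I1a and 6.20 in I3a against 3.43 in I3b. Its part in the Crh levels was not tested. In E1 and E2, where Crh was highest, Mbp read 2.68 and 2.94, and the summed log2 level of the 5 oligodendrocyte markers was 12.7 and 12.8, beside 12.6 to 16.2 in the inhibitory pools.

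Crhbp, the secreted protein that binds and limits the hormone, was read in the I3 family. Its arrays gave 8.30 and 8.24 in I3b, and 4.63 and 5.96 in I3a. In E2 they gave 3.35 and 2.64, and on the 8 arrays of the other 4 pools they lay between 2.53 and 2.64. Both I3 pools stood above the other 5, as they did for 8.32% of genes tested. The arrays of I3b and I3a were separated by 2.28, and those of I3a and E2 by 1.28. I3a is the least precise of these values, with a standard deviation of 0.95 between its arrays. Below I3a the arrays of all neighbouring pools overlapped, so E2, I1a, I1b, E1 and I2 have no order beyond their spread. The span was 5.71, with the lower pools close to the lowest value of the table, so it too depends on that limit.

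Hormone and binding protein were highest in different pools. In I3b, Crhbp was at 8.27 and Crh at 4.19, whereas in E2, E1, I1b and I2 Crh was at 7.73 or more and Crhbp at 2.99 or less. In I3a both were read, with Crh at 9.69 and Crhbp at 5.30. In I1a neither was above 3. Over the 7 pools the correlation was r = -0.341 (rho = -0.071). It is a description over pools whose labels list the same reporter lines and that share amplification method and array platform.

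The receptors were read at or near the lowest values in every pool. Crhr1, the main brain receptor of CRH, lay between 2.68 and 3.01 on the 14 arrays. Its highest value was on 1 array of E2, whose other array gave 2.69. Crhr2, the receptor preferred by urocortins, lay between 2.39 and 3.46, with the highest value again on 1 array of E2 whose other array gave 2.39. Neither gene reached a pool mean of 5, and neither entered the tests. These readings do not show that the transcripts are absent, since 1 probe set a gene was read.

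Other ligands of these receptors were also near the lowest value. The highest pool mean was 2.41 for Ucn, 2.40 for Ucn2 and 2.48 for Ucn3, which encode the urocortins. Of 11 other class B receptors measured, Adcyap1r1, the receptor of the peptide PACAP, was the 1 gene to reach 5, at 5.56 in I1a to 7.07 in I3b. Its arrays in I3b gave 6.99 and 7.16, and in I3a 6.80 and 6.56. The other 10 class B receptors had pool means of 3.19 or less.

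Crh was then set beside 33 other neuropeptide precursors, of which 24 were measured. Cck, Gal and Penk reached 5 in a pool, and the other 21 had pool means of 4.94 or below. Cck, the cholecystokinin precursor, read 7.28 and 6.72 on the I2 arrays and 4.84 and 4.75 on those of I1a. Gal, the galanin precursor, had a pool mean of 7.67 in I2 and 4.15 or less elsewhere. Penk, the precursor of enkephalins, read 5.79 and 6.53 in I3b and its means in the other pools were 3.10 or less. Penk and Crhbp thus shared I3b as their highest pool, while Cck and Gal shared I2. Sst, the somatostatin precursor, came closest to 5 among the rest, with a mean of 4.94 in I3a, where its arrays disagreed at 6.01 and 3.88. The spans of Cck, Gal and Penk were 4.59, 3.98 and 3.52, beside 10.36 for Crh.

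The machinery of the hormone was examined through 9 lists of 125 genes, 104 of them measured and 36 tested. The lists cover other ligands, Gs and cyclic AMP signalling, receptor kinases and arrestins, prohormone processing, dense core vesicles, regulators of the Crh gene, the stress axis, other peptides and class B receptors. A gene was called by limma where its difference reached 1 log2 unit and its p, adjusted by Benjamini-Hochberg over all genes tested, was under 0.05. For E pools against I pools none of the 36 was called, where 0.0227% of all genes were. None had an unadjusted p under 0.05 either, where 273 of all 4409 genes did. For I1 against I3 none was called, as 0% of all genes were. Of the 36, 7 had an unadjusted p under 0.05, beside 496 of all 4409 genes. Vgf, a secreted peptide precursor of dense core vesicles, had the largest difference of these 7, at -1.88 (SE 0.72, adjusted p 0.418). With arrays in place of means and pools as a random effect, limma called it (adjusted p 0.0462) as 1 of 36 listed genes (2.78%), where it called 114 of all 4409 (2.59%). This fit takes technical arrays as observations, with 10 residual degrees of freedom beside 3 on pool means. Its calls therefore do not show a difference replicated over pools. That fit called no listed gene for E against I, where it called 6 of 4409.

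Tests between sister pools rest on the spread of technical replicates, and so speak of these pools alone. For E1 against E2, 5 of 36 listed genes were called (13.9%), beside 7.39% of all genes, 4 higher in E1 and 1 in E2, where 4.2% and 3.2% of all genes were. With arrays centred on their median the split was 3 and 2. For I1a against I1b, 5 of 36 were called (13.9%), beside 13.1% of all genes, 1 higher in I1a and 4 in I1b, where 3.36% and 9.78% of all genes were. The median difference of all genes was -0.22 in this pair and 0 after quantile normalization. For I3a against I3b, 5 of 36 were called (13.9%), beside 9.91% of all genes, 2 higher in I3a and 3 in I3b, where 2.99% and 6.92% of all genes were. Where the lower pool read close to the lowest value of the table, as for Cadps2, Penk, Otp, Pde4b and Cck, the size of a difference depends on that limit. The median of the listed genes was -0.02, -0.19 and -0.20 in these pairs, beside 0.04, -0.22 and -0.09 over all genes.

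Of the 14 cyclic AMP genes tested, Adcy7 was called in 2 pairs. Adcy7 encodes an adenylyl cyclase, which makes cyclic AMP. Its arrays gave 9.83 and 9.77 in E2 and 9.86 and 9.91 in I3a, and from 6.61 to 8.02 in the other pools. E1 minus E2 was -3.04 (SE 0.14, adjusted p 5.95e-08), and I3a minus I3b was 2.45 (SE 0.14, adjusted p 1.40e-07). With the mean of all its probe sets these differences were -1.52 and 1.37. I1a minus I1b was -0.55, short of 1. In all 3 pairs the pool with more Crh had the higher Adcy7 reading, although E1, second highest for Crh, had the lowest Adcy7 at 6.77. The share of all genes with that direction in all 3 pairs was not counted, so this is a description. Prkar2b, a regulatory subunit of protein kinase A, was higher in I1b than I1a, with a difference of -2.68 (SE 0.20, adjusted p 1.86e-06), or -1.64 with the mean of its probe sets. Pde4b, which breaks down cyclic AMP, was also higher in I1b, with -3.74 (SE 0.83, adjusted p 0.00349). Its technical spread was wide elsewhere, with arrays of 2.46 and 5.49 in I3a, and the call ended without replicate 2 (-3.34) and without the low-signal filter. With the mean of its probe sets Pde4b did not reach 5 in any pool and was not tested. Prkaca, the main catalytic subunit of the kinase, had pool means of 10.40 to 10.62.

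Dense core vesicle genes gave 9 tested. Cadps2, a protein that primes dense core vesicles for release, read 6.11 and 6.81 in I1b and 5.76 and 5.95 in I3a, and 3.68 or less on every array of the other pools. I1a minus I1b was -3.96 (SE 0.25, adjusted p 5.25e-07) and I3a minus I3b was 2.72 (SE 0.25, adjusted p 1.00e-05), so Cadps2 was higher in the sister pool with more Crh in both inhibitory pairs. Mbp, set out above, was highest in the same I1b and I3a pools, and its part in the Cadps2 readings was not tested. In E1 and E2, with the highest Crh, Cadps2 read 2.86 and 3.64. The related Cadps had pool means of 8.97 to 10.35. Vgf was higher in E1 than E2 by 1.80 (SE 0.10, adjusted p 2.88e-07) and lower in I3a than I3b, with -1.45 (SE 0.10, adjusted p 9.32e-07). In both pairs it was the pool with less Crh that had more Vgf. How many of all genes matched Crh in direction like Cadps2, or ran opposite like Vgf, was not counted.

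Of 3 processing genes tested, Pcsk1n, an inhibitor of a prohormone convertase, was called in E1 against E2. It was higher in E1 by 1.19 (SE 0.26, adjusted p 0.00553), and the call ended without replicate 1 (0.86) and without the low-signal filter. Cpe, the carboxypeptidase that trims peptides, had pool means of 13.73 in E2 to 14.50 in I3b. Of the 10 processing genes listed, 7 were measured. Among these, Pam, Furin, Pcsk5 and Pcsk7 had pool means of 3.01 or less and were not tested, which does not show that they are absent. Among 4 tested regulators, Otp, a homeobox factor of hypothalamic peptide neurons, was higher in E1 than E2 by 2.63 (SE 0.30, adjusted p 7.48e-05). Otp was also higher in I1b than I1a, with -1.38 (SE 0.30, adjusted p 0.00307), a call that ended without replicate 2 (-0.99). With the mean of all its probe sets Otp did not pass the low-signal filter and was not tested. Neither Otp call therefore has a result in that setting. Otp read 2.90 in E2, where Crh was highest. Fos, an activity-dependent transcription factor, was lower in I3a than I3b, with -2.24 (SE 0.22, adjusted p 1.70e-05). Nr3c2, the mineralocorticoid receptor, was higher in E1 than E2 by 1.03 (SE 0.21, adjusted p 0.00397), and centring of arrays (0.95) or leaving out replicate 2 (0.96) ended the call. Nr3c1, the glucocorticoid receptor, stayed at 3.53 or below.

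**Figure D2:**
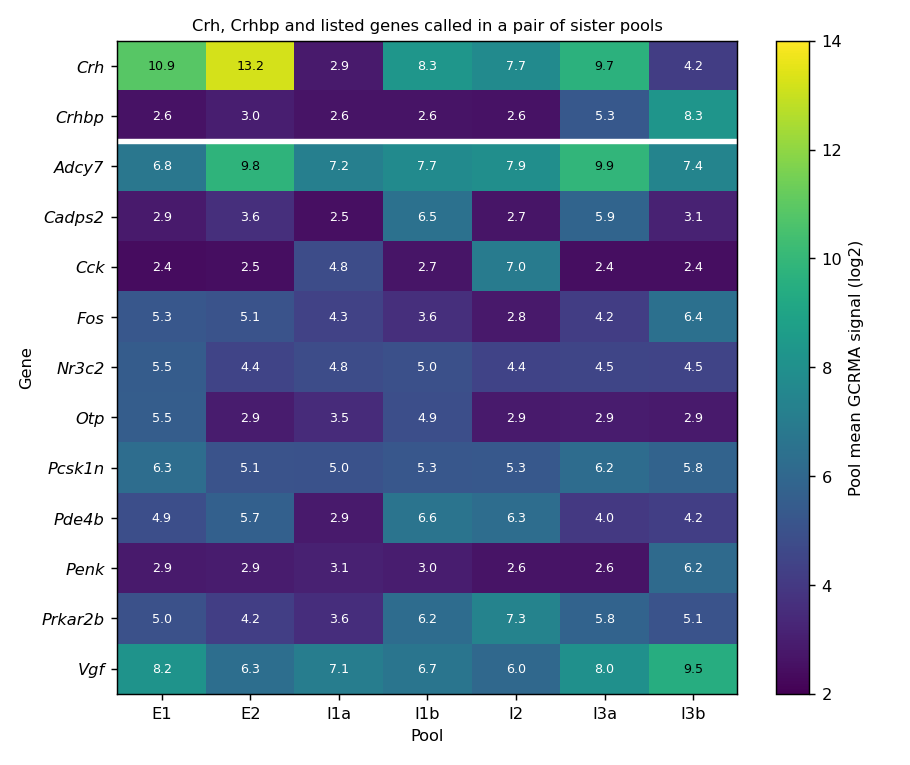
Pool mean log2 signal (colour and printed value) of Crh, Crhbp and the 11 listed genes called in at least 1 pair of sister pools (rows) in the 7 pools (columns). Adcy7 is highest in E2 and I3a, at 9.80 and 9.88, Cadps2 in I1b and I3a, at 6.46 and 5.86, and Penk in I3b, at 6.16.

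Of the other peptides, Penk was lower in I3a than I3b, with -3.51 (SE 0.26, adjusted p 1.68e-06), opposite to Crh in that pair. The difference was -4.14 without replicate 1 and -2.87 without replicate 2. Cck was higher in I1a than I1b by 2.10 (SE 0.21, adjusted p 1.58e-05), again opposite to Crh. Of the 2 receptor kinase and arrestin genes tested, none was called in any of the 5 comparisons. Adcyap1r1 was not called in any of them either, with its largest difference at -1.01 for I1 against I3 (SE 0.31, adjusted p 0.359).

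Genes with a pattern like that of Crh were ranked by Pearson r over the 7 pool means, among 821 other genes that spanned at least 2 log2 units. Cav2, a membrane scaffold protein of caveolae, came first with r = 0.944 (rho = 0.964), from 3.85 in I1a to 7.72 in E2. Miat, a long noncoding RNA, followed with r = 0.925 and ran from 6.99 in I1a to 9.54 in E2. Fhod3, a formin of the actin cytoskeleton, had r = 0.859, and Zic1, a transcription factor of the dorsal hindbrain, r = 0.847. Gabrb2, a GABA-A receptor subunit, had r = 0.833, Cnr1, the cannabinoid receptor of nerve terminals, 0.818, Tmem158, a membrane protein, 0.818, and Asph, a hydroxylase, 0.816. With I1a and E2 left out, as the pools farthest from the median, it was 0.905 for Cav2 and 0.751 to 0.788 for Miat, Fhod3, Zic1, Gabrb2, Cnr1 and Asph. For Tmem158 it was 0.120, so that likeness rests on those 2 pools. In I2, where Crh read 7.73, Fhod3 read 3.19, Zic1 2.71 and Cnr1 2.39, so these genes departed from Crh in that pool. Tmem158 read 4.01 there, Cav2 6.52, Asph 6.64, Gabrb2 7.98 and Miat 8.29.

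Opposite patterns were led by Stum, with r = -0.955 (rho = -0.964). It read 11.05 in I1a and 4.33 in E2, and without I1a and E2 its r was -0.892. Klhl4, a kelch protein, had r = -0.910, Col24a1, a fibrillar collagen, -0.833, and Gad1, which makes GABA, -0.828. Gad1 was used to class the cells and drives a reporter line. These r have no p, since the points share platform and amplification method and the genes were picked as the extremes of 821.

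**Figure D3:**
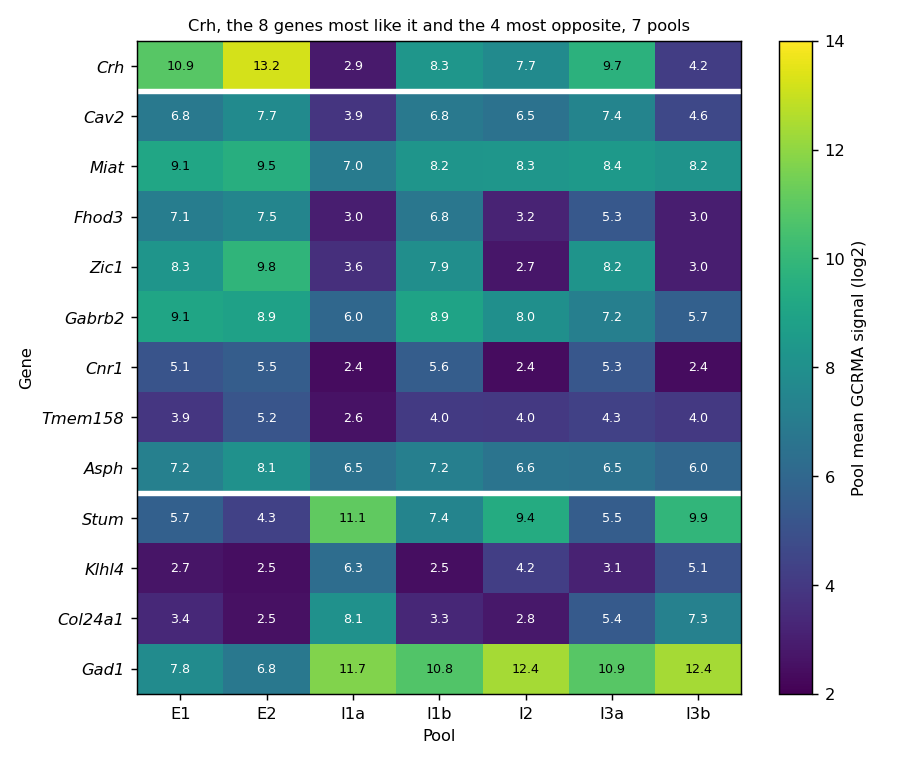
Pool mean log2 signal (colour and printed value) of Crh, the 8 genes most like it and the 4 most opposite by Pearson r (rows) in the 7 pools (columns). Cav2 follows Crh from 3.85 in I1a to 7.72 in E2, and Stum runs the other way, from 11.05 to 4.33.

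For Crhbp the same ranking was led by Kank2, a cytoskeletal adaptor, with r = 0.982. It read 5.82 in I3b, 4.67 in I3a and 3.77 to 4.12 elsewhere. Igfbp5, a secreted protein that binds insulin-like growth factors, had r = 0.954 and read 6.63 in I3b against 3.85 or less elsewhere. Acly, which makes acetyl-CoA from citrate, had r = 0.952, Gng4, a G protein subunit, 0.951, Klf6, a zinc finger factor, 0.946, Gpc5, a glypican of the cell surface, 0.946, Cntn5, a contactin, 0.937, and Fign, a microtubule-severing enzyme, 0.928. All 8 were highest in I3b and next highest in I3a. Without I3b and I3a, r ranged from -0.217 for Gng4 to 0.783 for Cntn5, over pools in which Crhbp was close to the lowest value. The likeness therefore rests on the I3 pools.

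Opposite to Crhbp were Zfp804a, a zinc finger protein, with r = -0.938, Mfap3l, a membrane protein, with -0.936, Plcxd2, a phospholipase-like protein, with -0.914, and Rgs4, an inhibitor of G protein signalling, with -0.909. Each of the 4 was lowest in I3b. Without I3b and I3a, r was 0.083 for Zfp804a and for Rgs4, so their opposite patterns rest on the I3 pools. It was -0.66 for Mfap3l and -0.669 for Plcxd2. Rgs4 read 3.55 in I3b and 5.46 in I3a, against 7.93 in I1a to 11.32 in I2.

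**Figure D4:**
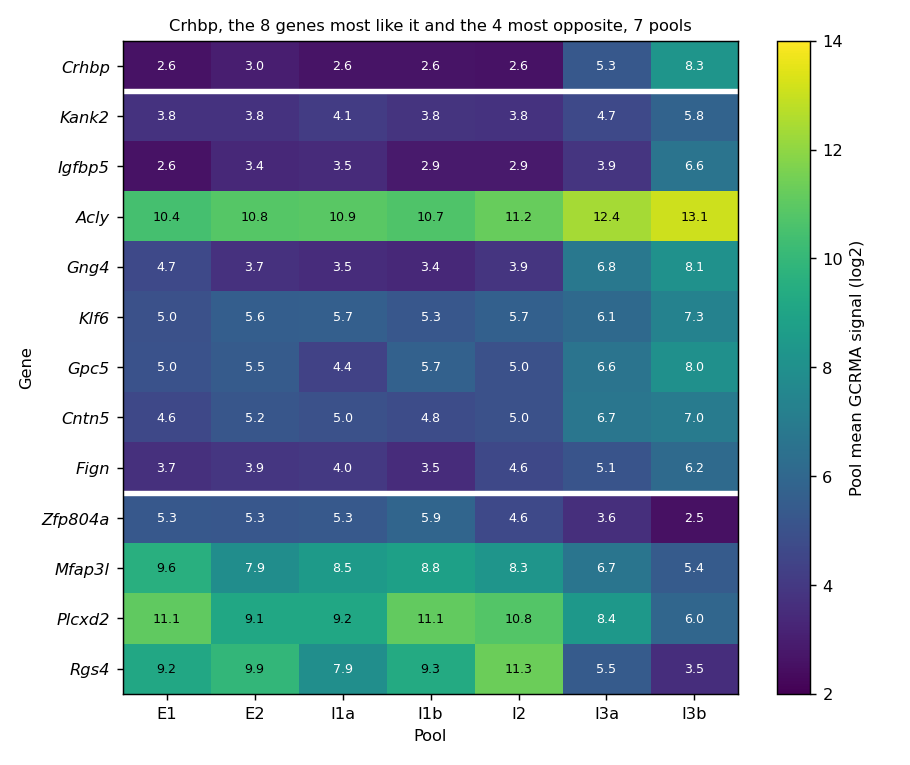
Pool mean log2 signal (colour and printed value) of Crhbp, the 8 genes most like it and the 4 most opposite by Pearson r (rows) in the 7 pools (columns). Kank2 reads 5.82 in I3b and 4.67 in I3a, above all other pools, and Rgs4 reads 3.55 and 5.46 there, below all other pools.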

How the data were processed

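Expression was measured on 14 Affymetrix arrays, 2 technical replicates of each of 7 pools. The authors deposited log2 signals from GCRMA and affy, per the submitters' processing notes, which give no versions, and the log base was taken from GCRMA's usual output and the values (2.387 to 15.9). The table holds 30843 probe sets: 64 controls, 24034 with 1 gene symbol, 477 with several and 6268 with none. Symbols were updated by Entrez identifier to RefSeq (GRCm38.p6), where 23883 matched. A gene was read by its probe set with the highest mean. On each array 15.1% to 16.4% of probe sets reached 5, which takes the place of depth.

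The members and lists were chosen with earlier results of these data known. R 4.3.3 with limma 3.58.1 (intensity trend) fitted 4409 genes, on 7 pool means for E against I (2 and 5 pools) and I1 against I3, and on 14 arrays for sister pools, where the error is technical. Differences are first minus second. The fits were tested on simulated data. The planted changes were larger than any called difference of a listed gene, and no lower limit of signal was simulated. That test therefore does not speak to calls near the thresholds or near the lowest value. Named were the members, the 8 most and 4 least like genes by r, and listed genes called or with the largest differences. Alternatives covered filters, scaling, probe sets, trend, blocks and left-out arrays or pools. Python 3.11.15 with pandas 2.3.3 and matplotlib 3.10.9 made figures.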

Additional observations from a re-analysis of the deposited data

Results flagged for a closer look

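Among the 5 inhibitory pools, 39 named genes were examined for 1 pool far from the rest (gap over range above 0.710), and 6 were found. Chance flags about 1 in 20 groups, but most of these genes were named for their differences between pools, so that rate does not apply to them. Adcy7 read 9.88 in I3a, the next being 7.93. Penk read 6.16 in I3b, the next being 3.10, and Igfbp5 read 6.63 in I3b, the next being 3.85. Miat read 6.99 in I1a, the next being 8.15, and Tmem158 read 2.57 in I1a, the next being 4.01. Crhr1 read 2.75 in I3b against 2.68 in the other inhibitory pools, which were tied near the lowest value of the table.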

How the results depend on the processing

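The order of Crh over the 7 pools was kept under quantile normalization, centring of arrays and without either replicate, with a largest shift of 0.18 in a pool. For Crhbp, I3b, I3a and E2 kept their places in these settings. The order of the 4 lowest pools changed under quantile normalization and without replicate 2, and was kept in the others. The largest shift of Crhbp in a pool was 0.67, in I3a with either replicate left out. The span of Crhbp was 5.63 after quantile normalization and 5.83 with centred arrays. The span of Crhr1 became 0.39 with centred arrays. The members have 1 probe set each, so no other probe set could be tried. Of the 8 genes most like Crh, Spearman ranking kept 4, and of those like Crhbp it kept 0. The replicates left out in turn kept 4 to 5 of the 8 for Crhbp. Counts of listed genes called became 2 of 23 (8.7%) in each sister pair with a filter at 7, beside 7.99% of all genes for E1 against E2, 12.6% for I1a against I1b and 9.02% for I3a against I3b. They became 3 for I1a against I1b with the mean of all probe sets, and 1 for I1 against I3 with the pool as a random block (2.78%, beside 2.59% of all genes). With the replicate number as a replicate block the counts stayed at 5 in each sister pair. Deviations of same-numbered arrays correlated at -0.117 to 0.212 (median 0) over 21 pairs of pools, so no pairing by number common to all pools was seen. A batch shared by some pools was not tested. Scaling moved the share of all called genes higher in the first pool from 56.7% to 46.4% (centred) for E1 against E2, from 25.6% to 44.6% (quantile) for I1a against I1b and from 30.2% to 48.8% (centred) for I3a against I3b.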
